A study of Mus musculus with 14 samples.

Results

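The interleukin 17, 22, 23 and 10 axis was followed through 10 genes, namely the cytokine genes Il17a, Il17f, Il22, Il21, Il10, Il23a and Il12b and the receptor genes Il17ra, Il22ra1 and Il22ra2. Every array probe whose accession mapped to one of these genes was taken, which gave 13 of the 41174 probes, and all 10 genes had at least 1. Of the 10 genes, 8 had a probe that met the filter for testing (a signal well above background on 3 or more of the 14 arrays), among 15541 tested genes with a symbol. The probes came from 1-colour Agilent arrays of colon RNA from female C57BL/6 mice of 4 to 6 months on chow diet. Flox mice, the controls, carried Nr3c1, which encodes the glucocorticoid receptor (GR), flanked by loxP sites but not deleted. GR iKO mice were Flox mice crossed with Villin-cre, so that the deletion was driven in the intestinal epithelium and the other cells of the colon kept GR. The alleles were thus shared by all groups, and the Cre transgene separated the genotypes. Mice of each genotype had regular water (n = 4 Flox and n = 4 GR iKO arrays) or, for 7 days, 2.5% DSS (n = 3 Flox and n = 3 GR iKO arrays), the detergent-like polymer dextran sulfate sodium, used in drinking water to damage the gut lining and provoke colitis.

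IL-23 is a heterodimer of p19, encoded by Il23a, and p40, encoded by Il12b and shared with IL-12. It acts on T helper 17 cells, gamma delta T cells and group 3 innate lymphoid cells, which release IL-17A, IL-17F and IL-22. IL-17 signals through IL-17RA on epithelium and stroma and induces neutrophil chemokines, IL-22 signals through IL-22RA1 on epithelium and induces antimicrobial and repair genes, and IL-22RA2 is a soluble receptor that binds IL-22 and blocks it. IL-10 is an anti-inflammatory cytokine that restrains this response in the gut.

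Values are processed signals in log2 units, from which the array's own 75th percentile was subtracted. A probe was called at a Benjamini-Hochberg adjusted p under 0.05 over all 29523 tested probes in limma. Arrays had 75th percentiles of 262 to 1003 intensity units, with 62.6% to 71.3% of their probes well above background. The spread was larger on DSS, where an array received a weight of 0.50 against 1.69 on water. Nr3c1 was lower in GR iKO, at 0.19 to 0.57 on water against 1.05 to 1.38 in Flox (57.3% of Flox, exact two-sided permutation test p = 0.0286) and at 0.37 to 0.48 on DSS against 1.07 to 1.46 (56.1% of Flox, exact p = 0.10, the smallest that 3 against 3 arrays allow). These values are of the brightest of 4 Nr3c1 probes, and by the other probes GR iKO stood at 47.6%, 55.7% and 54.2% of Flox on water and at 75.7%, 55.2% and 57.1% on DSS, where the groups overlapped for one of them (exact p = 0.5), as they did for another on water (exact p = 0.143). By limma no Nr3c1 probe was called between genotypes on DSS (adjusted p from 0.0885 to 0.625, and 0.0906 for the brightest). On water limma called the brightest probe (adjusted p = 0.00923) and the one at 54.2% (adjusted p = 0.00252), and neither of the others. The labelled tissue carried its defining genes, with all 8 listed epithelial genes well above background on every array. The spike-in control probes moved with the groups, at a median log2 signal of 9.46 to 10.18 on water arrays, 11.04 to 11.32 on Flox DSS arrays and 10.01 to 10.70 on GR iKO DSS arrays, and their part in the results was not tested. Nothing in the labels says that each array held a separate mouse, so that p-values measure the spread between these samples.

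To ask whether the axis responds to colitis in each genotype, DSS arrays were compared with water arrays within Flox and within GR iKO. In GR iKO, 5 of the 8 tested members were higher on DSS (Il17a, Il17f, Il22, Il10 and Il12b) and 1 was lower (Il22ra2), beside 38.9% of all tested probes called in that comparison. In Flox, 1 member was higher (Il12b) and 1 was lower (Il22ra2), beside 47.2% of all tested probes called. The second probe of Il22 was also called higher in Flox. The median change over the 8 members was 2.26 log2 units in GR iKO and 0.39 in Flox, against a median of -0.02 and -0.09 over all tested probes. Il17a passed the filter through the GR iKO DSS arrays alone, and Il10 and Il12b passed through those arrays and 1 other each, so that these members had to be high in that group to be tested. The brighter Il22 probe passed through the 6 DSS arrays and 1 water array, and the second through the GR iKO DSS arrays and 2 Flox DSS arrays. Both Il22 probes thus had to be high on DSS to be tested. With spike-in scaling the calls of Il10 (0.94, adjusted p = 0.234) and Il17f (1.63, adjusted p = 0.0944) in GR iKO and of Il12b in Flox (0.23, adjusted p = 0.738) were lost, and Il10 and Il17f were called lower in Flox (-1.74 and -2.25), where the median of all tested probes was then -2.47. With normexp background correction the call of Il22ra2 in GR iKO was lost (-0.62, adjusted p = 0.0687). The difference between the genotypes' responses was tested as an interaction, in which 0 of 29523 probes (0%) and none of the members were called by limma, while 4389 probes, among them Il17a, Il17f, both Il17ra probes and the second Il22 probe, had an unadjusted p under 0.05.

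**Figure D1:**
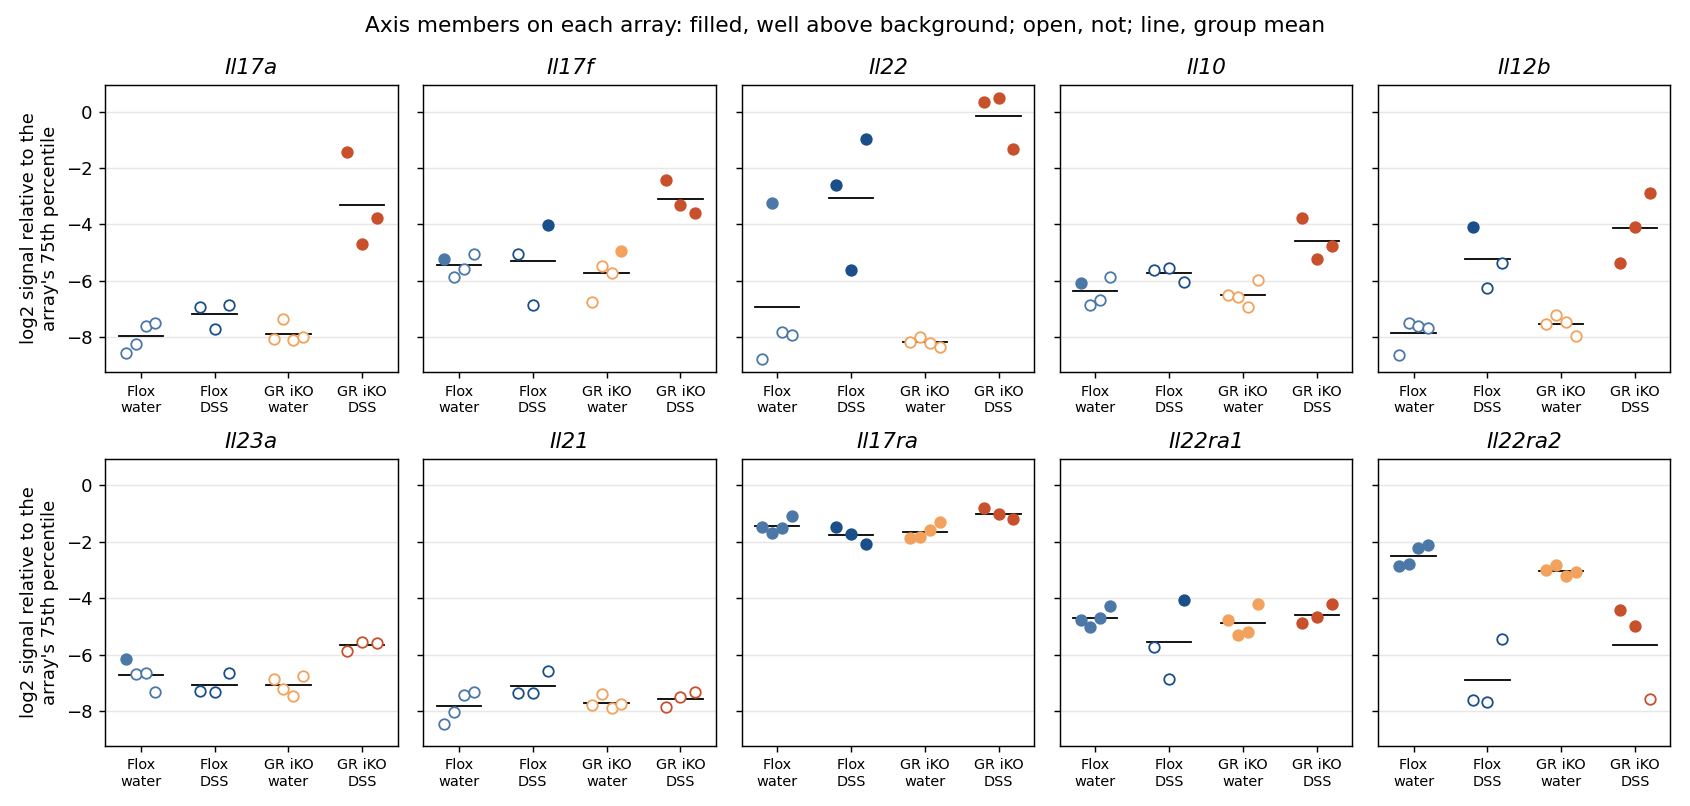
Level of each member on each array (y axis, log2 signal minus the array's 75th percentile) by group (x axis), with filled points well above background, open points not, and a line at the group mean. Il17a is filled only on the 3 GR iKO DSS arrays, Il22 is filled on 1 of 8 water arrays and on all 6 DSS arrays, and Il22ra2 is filled on all water arrays and on 2 of 6 DSS arrays.

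The IL-17 ligands are described first. IL-17A and IL-17F are the pair of related cytokines that bind IL-17RA, and their genes lie next to each other on chromosome 1. Their promoters are shown because both genes were called higher on DSS in GR iKO and neither was called in Flox. Each line holds the 250 bases before the RefSeq start (GRCm38.p6, 5′ to 3′ along the gene), at chr1:20730655-20730904 on the + strand for Il17a and chr1:20784271-20784520 on the - strand for Il17f, and capitals mark motif matches.
Il17a promoter: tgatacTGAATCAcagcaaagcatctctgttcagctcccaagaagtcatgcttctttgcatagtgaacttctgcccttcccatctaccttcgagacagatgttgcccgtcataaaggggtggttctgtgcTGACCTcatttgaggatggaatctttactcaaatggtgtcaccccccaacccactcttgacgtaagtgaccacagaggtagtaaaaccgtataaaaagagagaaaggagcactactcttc
Il17f promoter: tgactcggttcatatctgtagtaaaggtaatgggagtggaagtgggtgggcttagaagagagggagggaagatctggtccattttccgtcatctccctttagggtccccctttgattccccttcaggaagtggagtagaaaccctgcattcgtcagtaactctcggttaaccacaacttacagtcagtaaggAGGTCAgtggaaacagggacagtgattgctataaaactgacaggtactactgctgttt
The Il17a promoter holds TGACCT, the core element bound by ROR nuclear receptors, at position -120 relative to the start, and the Il17f promoter holds the same motif on the other strand, AGGTCA, at position -58. Il17a also has an AP-1 match, TGANTCA, at position -244. The ROR element is found in 16.3% and the AP-1 motif in 7.8% of 32851 RefSeq promoters of 300 bases, and the matches are descriptions of letters only. Neither promoter holds the STAT motif TTCNNNGAA (8.3% of promoters), the NF-kB motifs GGGACTTTC or GGGAATTTC (0.6%) or the glucocorticoid receptor element AGAACA (19%) on either strand. Of the 10 members, 6 had a promoter sequence, and the other matches were 1 AP-1 motif in Il22ra1 and none in Il22, Il21 or Il12b.

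Il17a was measured well above background on the 3 GR iKO DSS arrays and on no other array. On those arrays its level was -1.42, -4.69 and -3.79, whereas it was -6.94, -7.71 and -6.84 on Flox DSS arrays, -8.56, -8.24, -7.59 and -7.48 in Flox on water, and -8.06, -7.34, -8.10 and -7.99 in GR iKO on water. The 3 GR iKO DSS arrays thus lay above all 11 others, with replicate 1 the highest. Within GR iKO, Il17a was at least 5.86-fold higher on DSS than on water (group means -3.30 and -7.87, adjusted p = 0.000128). This bound sets the dim group at the lowest signal that was well above background on each array, because a probe below that has no measured level. Such bounds apply to the processed signals of these arrays and include no sampling error. The Il17a bound was 3.05-fold without GR iKO DSS replicate 1 and 9.51-fold without replicate 3. With normexp background correction the fitted change was below the bound, at 1.64 log2 units or 3.12-fold (adjusted p = 0.00205). On the 3 slides that held GR iKO arrays of both treatments, the differences were 3.41, 6.65 and 4.20 log2 units. In Flox, where no array was well above background, the groups overlapped and the fitted difference was 0.81 ± 0.59 log2 units (SE, adjusted p = 0.282).

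Il17f gave a smaller contrast in the same direction. Its levels were -2.43, -3.33 and -3.58 on GR iKO DSS arrays, -5.04, -6.85 and -4.01 on Flox DSS arrays, -5.23, -5.88, -5.59 and -5.04 in Flox on water, and -6.75, -5.46, -5.73 and -4.93 in GR iKO on water. It was well above background on all 3 GR iKO DSS arrays and on 1 array of each other group, and the GR iKO DSS arrays again lay above all others. The DSS change was 2.60 ± 0.64 in GR iKO (adjusted p = 0.00718) and 0.14 ± 0.64 in Flox (adjusted p = 0.880). Within slides the GR iKO differences were 2.39, 4.32 and 1.35, and the Flox differences were 0.19, -0.97 and 1.04. With normexp background correction the fitted Il17f changes lay closer, at 1.04 in GR iKO (limma adjusted p = 0.00958) and 0.60 in Flox (adjusted p = 0.082). The interaction was then 0.44 (adjusted p = 0.697).

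Il22 had the largest fitted change of the tested members in GR iKO. Its brighter probe read 0.33, 0.48 and -1.33 on GR iKO DSS arrays and -2.59, -5.63 and -0.99 on Flox DSS arrays. On water it was not well above background on any GR iKO array, at -8.17, -7.98, -8.22 and -8.33, and in Flox it read -8.77, -3.24, -7.83 and -7.92, with replicate 2 alone well above background. On the processed signals Il22 was at least 51.2-fold higher on DSS than on water in GR iKO (adjusted p = 0.00215). With normexp background correction the fitted change was 14.3-fold (adjusted p = 7.12e-05). In Flox the fitted change was 3.87 ± 1.60 (adjusted p = 0.0647), and it was 5.10 (adjusted p = 0.000351) without Flox control replicate 2.
The second Il22 probe read -8.45 on that same Flox array, which sat among the other water arrays of this probe (-7.76 to -8.76). By this probe the fitted change of Il22 on DSS in Flox was 4.16 ± 0.60 (adjusted p = 0.000179), with 2 of 3 DSS arrays well above background, and Il22 was at least 16.1-fold higher in GR iKO (adjusted p = 2.1e-05). Within slides it was higher on DSS in each of 3 slides in both genotypes, by 2.49 to 5.23 in Flox and by 5.23 to 7.11 in GR iKO, while the brighter probe gave -2.39 on the Flox slide that held replicate 2. The gene table lists a near-identical neighbour, Iltifb, and whether the probes tell the copies apart was not tested. Il21, the gene of a cytokine of follicular helper and T helper 17 cells, was well above background on none of the 14 arrays (-6.59 to -8.46) and was not tested.

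Il12b, the p40 subunit, was higher on DSS in both genotypes. Its levels were -4.08, -6.25 and -5.36 in Flox and -5.37, -4.08 and -2.89 in GR iKO on DSS, against -8.62, -7.48, -7.61 and -7.66 in Flox and -7.52, -7.22, -7.46 and -7.95 in GR iKO on water. All 6 DSS arrays lay above all 8 water arrays, though no water array was well above background. In Flox, where 1 of 3 DSS arrays was well above background, Il12b was at least 1.71-fold higher (fitted change 2.61 ± 0.56, adjusted p = 0.00233). In GR iKO, where all 3 were, Il12b was at least 3.34-fold higher (adjusted p = 0.000601), a bound that was 2.18-fold without replicate 4 and 5.15-fold without replicate 1. With normexp background correction the fitted changes were 1.95-fold in Flox (adjusted p = 0.00633) and 1.99-fold in GR iKO (adjusted p = 0.00749). The Il12b probe carries an accession that is missing from the RefSeq table used for the other members, and its name comes from the gene table of the study's supplement.
Il23a, the p19 subunit that makes the pair IL-23, was well above background on 1 of 14 arrays, a Flox water array, and was not tested. It read -5.89, -5.55 and -5.59 on GR iKO DSS arrays and -6.64 to -7.31 on Flox DSS arrays, with water arrays between -6.16 and -7.47. When the filter on dim probes was dropped, the GR iKO change was 1.41 ± 0.34 (adjusted p = 0.00877), between 2 groups that were both not well above background.

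Il10 changed less. It read -3.76, -5.23 and -4.76 on GR iKO DSS arrays and -5.60, -5.55 and -6.05 on Flox DSS arrays. On water it read -6.09, -6.85, -6.67 and -5.88 in Flox and -6.51, -6.59, -6.93 and -5.97 in GR iKO. Only the GR iKO DSS arrays were all well above background, with 1 further array in Flox on water. Il10 was at least 2.39-fold higher on DSS in GR iKO (adjusted p = 0.00367), and the difference in Flox was 0.64 ± 0.42 (adjusted p = 0.229) between groups that overlapped. With normexp background correction both genotypes were called, at 0.72 log2 units or 1.65-fold in GR iKO (adjusted p = 0.0161) and 0.71 in Flox (adjusted p = 0.0124). The interaction was then 0.01. Array quality weights also called Flox higher (0.83, adjusted p = 0.0185), whereas spike-in scaling called it lower (-1.74, adjusted p = 0.0193). Within slides the GR iKO differences were 1.69, 2.75 and 1.21.

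Il22ra2, the soluble IL-22 receptor, fell in both genotypes. It read -2.86, -2.78, -2.22 and -2.11 in Flox and -3.00, -2.81, -3.23 and -3.06 in GR iKO on water, and it was well above background on all 8 of these arrays. On DSS it read -7.62, -7.67 and -5.45 in Flox, none well above background, and -4.41, -4.99 and -7.59 in GR iKO, with the last not well above background. All 6 DSS arrays lay below all 8 water arrays. Il22ra2 was at least 7.15-fold lower on DSS in Flox (adjusted p = 0.000115), and it fell by 2.64 ± 0.60 log2 units in GR iKO (adjusted p = 0.00461). With normexp background correction the falls were 1.80-fold in Flox (adjusted p = 0.0124) and 1.54-fold in GR iKO (adjusted p = 0.0687). A second Il22ra2 probe was well above background on no array and was not tested.

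Il22ra1, the signalling IL-22 receptor of epithelium, was called in neither genotype. It was well above background on all 8 water arrays (-4.19 to -5.32), on the 3 GR iKO DSS arrays (-4.88, -4.67 and -4.22) and on 1 Flox DSS array (-5.72, -6.85 and -4.05). The difference was -0.84 ± 0.52 in Flox, with a 95% confidence interval of -1.96 to 0.28 (adjusted p = 0.199), and 0.28 ± 0.52 in GR iKO, with an interval of -0.84 to 1.40. With slide as a fixed block the Flox value was -0.84 with an adjusted p of 0.0398, and with slide as a random block it was not called. With normexp background correction the Flox value changed sign, to 0.38 (adjusted p = 0.237).
Il17ra, the receptor chain shared by IL-17A and IL-17F, was well above background on all 14 arrays. It read -1.47, -1.71 and -2.09 on Flox DSS arrays and -0.79, -1.03 and -1.20 on GR iKO DSS arrays, with water arrays from -1.10 to -1.86. The change was -0.31 ± 0.25 in Flox (limma adjusted p = 0.331), while GR iKO gave 0.63 ± 0.25 (adjusted p = 0.0593). The second probe gave -0.31 ± 0.22 in Flox and 0.70 ± 0.22 in GR iKO, which was called (adjusted p = 0.0253).

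**Figure D2:**
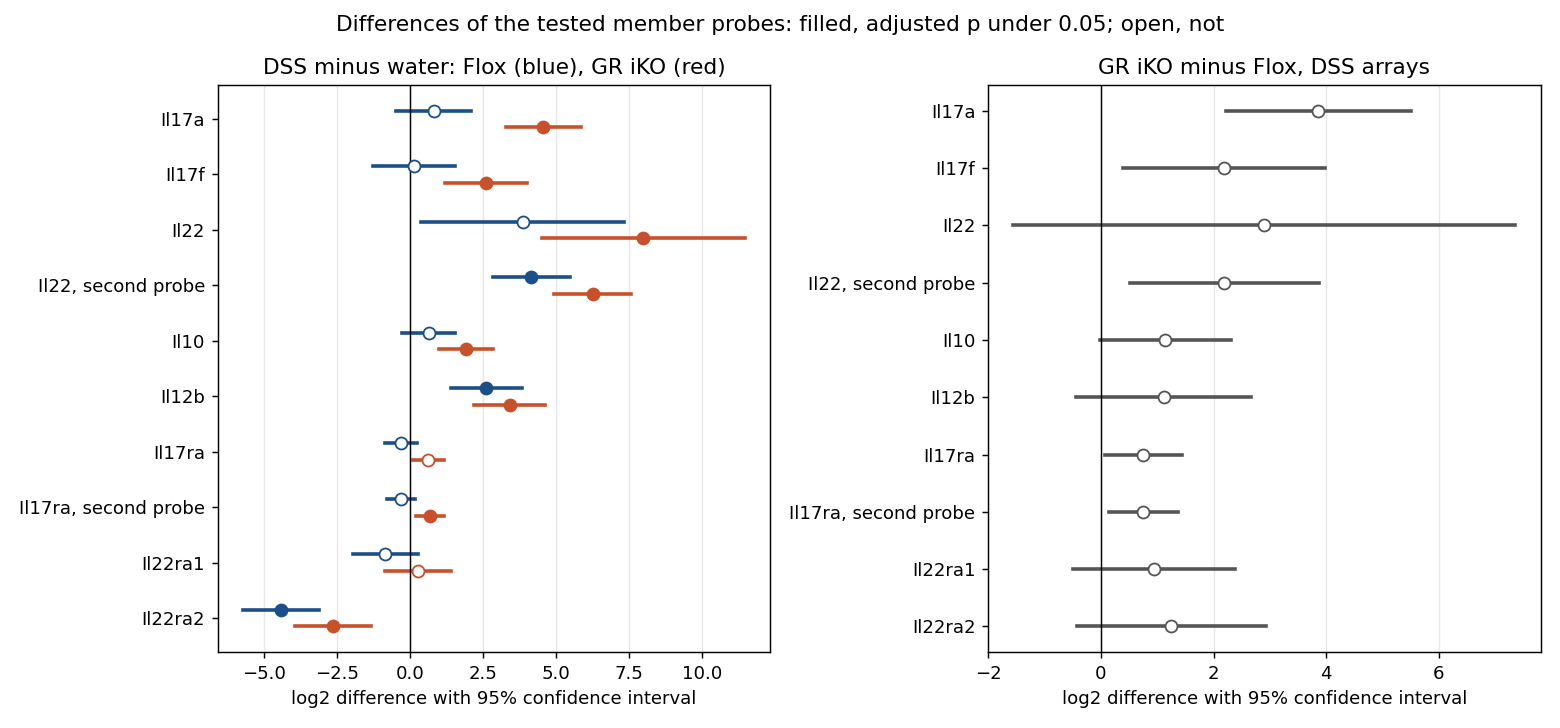
Log2 differences (x axis, with 95% confidence intervals) of the 10 tested member probes, for DSS minus water in Flox and GR iKO on the left and for GR iKO minus Flox on DSS on the right, with filled points called at an adjusted p under 0.05. Il17a stands at 0.81 in Flox and 4.57 in GR iKO, Il22ra2 lies below 0 in both, and no point on the right is filled.

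To ask whether loss of epithelial GR changes the axis, GR iKO was then compared with Flox. On water no member was called by limma, and none had an unadjusted p under 0.05, beside 0.0237% of all tested probes (7 of 29523), and the members' differences ran from -1.24 for Il22, set by the single high Flox array, to 0.30 for Il12b. On DSS no member was called either, beside 0.0203% of all tested probes (6 of 29523). At an unadjusted p under 0.05, Il17a, Il17f, both probes of Il17ra and the second Il22 probe differed, as did 5252 probes in all. On slide 4, 1 of the 2 slides that held DSS arrays of both genotypes, the brighter and the second Il22 probe, Il22ra1 and Il22ra2 read lower in GR iKO (-0.33, -0.37, -0.17 and -2.13), as Il12b did on slide 1 (-0.01).
Il17a had the smallest p of the members. It passed the filter through the GR iKO DSS arrays alone, and Il10 through those and 1 other array. The second Il22 probe passed through those arrays and 2 Flox DSS arrays. Each of these probes thus had to be high in GR iKO DSS to be tested, and its difference from Flox DSS is not independent of the filter. For Il17a the 3 GR iKO DSS arrays lay above the 3 Flox DSS arrays, and Il17a was at least 4.09-fold higher (fitted difference 3.86 ± 0.75, 95% confidence interval 2.22 to 5.50, adjusted p = 0.0710). The bound was 2.13-fold without GR iKO DSS replicate 1 and 6.63-fold without replicate 3, and with normexp background correction the fitted difference was 0.75 (adjusted p = 0.454). On the same 2 slides the differences were 2.24 and 3.06. The groups also did not overlap for Il17f (2.19 ± 0.82, adjusted p = 0.197), Il10 (1.14 ± 0.54, adjusted p = 0.292) and Il17ra (0.75 ± 0.32, adjusted p = 0.239). With normexp these differences were 0.35, -0.07 and 0.40. For Il10 no Flox DSS array was well above background, and the bound was 1.64-fold. Full separation of 3 against 3 arrays has an exact permutation p of 0.10, and its share over all tested probes was not counted. The groups overlapped for Il22, Il12b, Il22ra1 and Il22ra2, and the Il22 difference of 2.90 ± 2.05 had an interval from -1.56 to 7.36. Of the 27 alternative settings run for Il17a, 4 called this difference, as drawn in the plot of Il17a by setting. These were 1 shared spread for water and DSS arrays (adjusted p = 0.00735), array quality weights (0.00628), and leaving out Flox DSS replicate 4 (0.0397) or GR iKO DSS replicate 3 (0.0254).

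**Figure D3:**
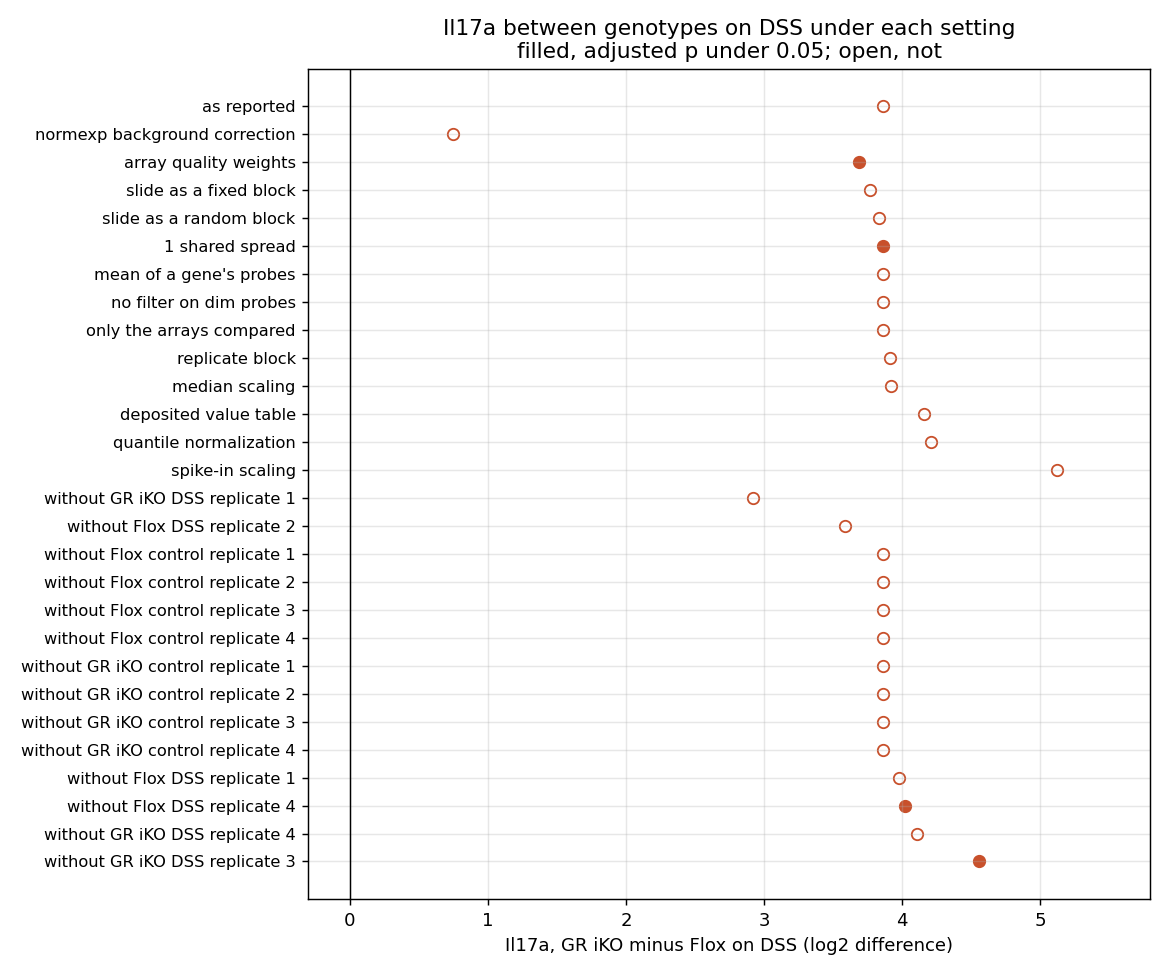
Difference of Il17a between GR iKO and Flox on DSS (x axis, log2 units) under each setting (y axis), filled where the adjusted p was under 0.05. The difference is above 0 under every setting drawn, from 0.75 with normexp background correction to 5.12 with spike-in scaling, and it is called under 4 of them. Il17a passed the filter through the GR iKO DSS arrays alone, so its separation from Flox is not independent of the filter.

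Partners of the members were read from lists of linked genes. Among the IL-23 and IL-12 partners, 5 of 7 tested genes were higher and 1 was lower on DSS in GR iKO, and 1 was higher and 1 lower in Flox, beside the 38.9% and 47.2% of all tested probes called in these comparisons. Il12a, the p35 subunit that joins p40 to form IL-12, rose by 2.98 ± 0.29 in GR iKO (adjusted p = 2.1e-05) and differed by 0.68 ± 0.29 in Flox (adjusted p = 0.0701). Il12rb1, the receptor chain for p40, rose in both (1.38 ± 0.33 in Flox and 2.27 ± 0.33 in GR iKO), and Stat4, which signals for IL-12, rose in GR iKO (1.38 ± 0.28, adjusted p = 0.00236). Il23r, the chain that binds p19, was well above background on 1 of 14 arrays and was not tested.
Of 7 tested genes of the IL-17 family and its receptors, 2 were lower and none was higher on DSS in GR iKO, and 1 was higher and 1 lower in Flox. Il17re, the receptor chain for epithelial IL-17C, fell by 1.11 ± 0.22 in Flox and by 1.49 ± 0.22 in GR iKO, Il25 fell by 2.07 ± 0.58 in GR iKO (adjusted p = 0.0139), and Il17d rose by 1.53 ± 0.20 in Flox (adjusted p = 9.7e-05). Il17rc, the chain that pairs with IL-17RA, was not called (-0.29 ± 0.21 in Flox and -0.46 ± 0.21 in GR iKO).
Of 8 tested genes of the IL-10 family and its receptors, 3 rose in Flox and 5 in GR iKO. Il19, an IL-10 family cytokine, was at least 29.7-fold higher in Flox (adjusted p = 8.96e-05) and at least 36.9-fold higher in GR iKO (adjusted p = 6.83e-05). It was well above background on DSS arrays only, so it had to be high on DSS to be tested. Il20ra, a receptor chain for IL-19, rose by 2.49 ± 0.55 and 2.34 ± 0.55, and Il10ra, the specific IL-10 receptor chain, rose by 1.22 ± 0.24 and 1.97 ± 0.24 in Flox and GR iKO.

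Lists of genes known to respond to these cytokines were read against the same shares of all tested probes called, 47.2% in Flox and 38.9% in GR iKO. Of 14 IL-17 target genes, 10 rose and 1 fell in Flox and 11 rose in GR iKO, with a median change of 4.31 and 5.37. Il6 was at least 57.8-fold higher in Flox (adjusted p = 1.33e-07) and at least 134-fold higher in GR iKO (adjusted p = 3.66e-08), and the neutrophil chemokine Cxcl5 rose by 5.90 ± 0.95 and 8.06 ± 0.95. Cxcl2, another neutrophil chemokine, was at least 6.56-fold higher in Flox (adjusted p = 0.000166) and at least 57.7-fold higher in GR iKO (adjusted p = 7.92e-06). Of 14 IL-22 target genes, 8 rose and 1 fell in Flox and 10 rose in GR iKO, with a median change of 2.61 and 2.85. The antimicrobial lectins Reg3b (11.76 ± 0.90 in Flox and 10.42 ± 0.90 in GR iKO) and Reg3g (10.01 ± 0.73 and 9.07 ± 0.73) rose in both, and Reg3a was at least 1670-fold higher in Flox (adjusted p = 0.000151) and at least 36.0-fold higher in GR iKO (adjusted p = 0.00599). Of 7 IL-10 responsive genes, 5 rose in Flox and all 7 rose in GR iKO, with Socs3, the inhibitor of STAT3 signalling, at 4.53 ± 0.23 and 5.22 ± 0.23. Some listed genes, among them Il6, Cxcl2 and Reg3a, were well above background on DSS arrays only. They thus had to be high on DSS to be tested, and their rise is not independent of the filter. Genes of these lists also respond to other inflammatory signals.
Between genotypes on DSS limma called none of the 14 IL-17 targets and none of the 14 IL-22 targets, of which 5 and 6 had an unadjusted p under 0.05. Of the 7 IL-10 responsive genes 1 was, Il1rn, the IL-1 receptor antagonist, which was singled out after its values were seen, beside 0.0203% of all tested probes called. It was higher in GR iKO by 2.16 ± 0.28 (adjusted p = 0.0443), with changes on DSS of -0.05 ± 0.22 in Flox and 2.17 ± 0.22 in GR iKO. The difference between genotypes was called under 11 of 27 alternative settings, with adjusted p from 0.00355 to 0.333, and not with median or spike-in scaling, with the replicate block (0.0861) or slide as a fixed block (0.0977), or when only the arrays compared were fitted (0.226).

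**Figure D4:**
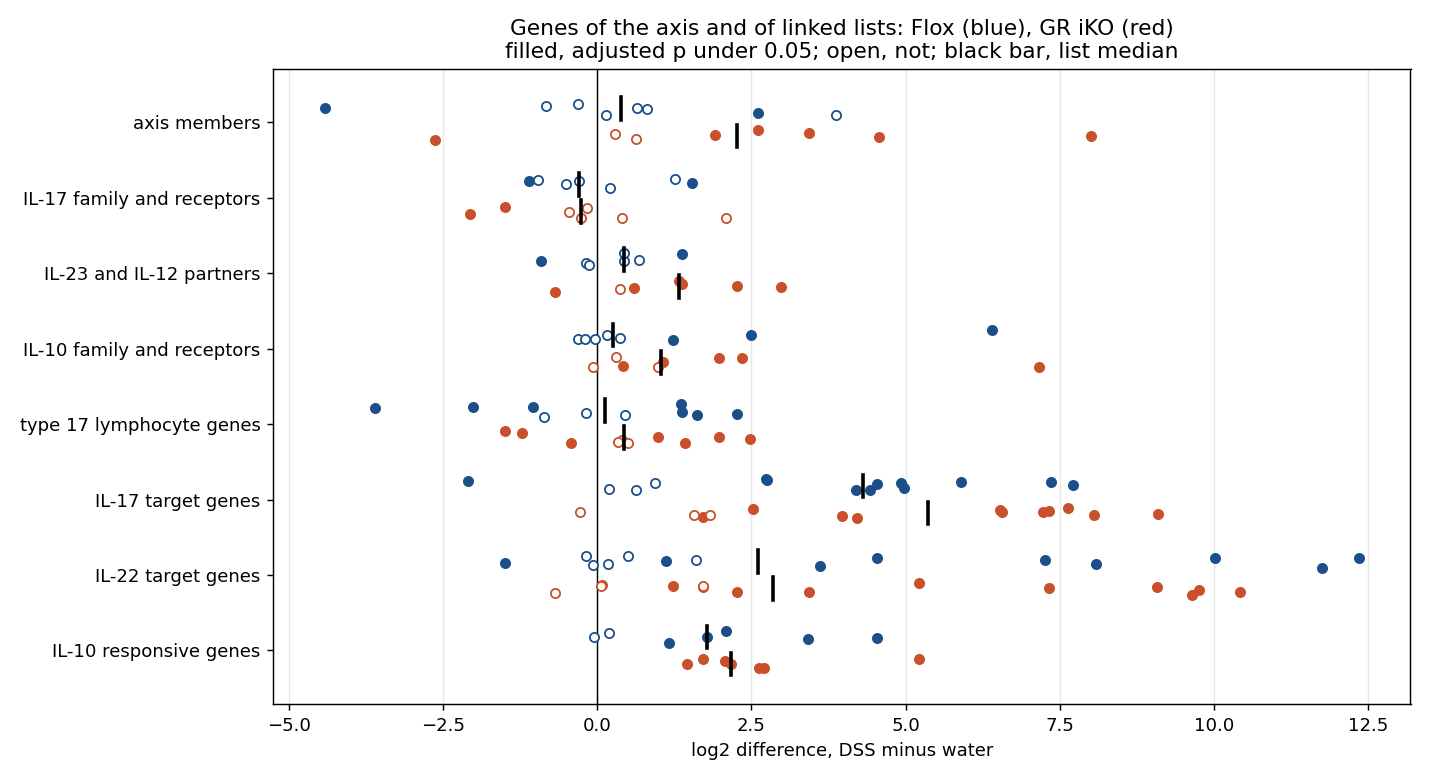
Log2 change on DSS (x axis) of each tested gene of the axis and of the 7 linked lists (y axis) in Flox and GR iKO, filled where the adjusted p was under 0.05, with a black bar at the list median. The IL-17 target list has medians of 4.31 and 5.37, whereas the IL-17 family and receptor list sits near 0, at -0.29 and -0.26.

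Genes of the cells that make these cytokines were read beside the members, against the same 47.2% and 38.9% of all tested probes called. Of 10 type 17 lymphocyte genes, 4 rose and 3 fell on DSS in each genotype. Stat3, which signals for IL-23 and IL-22, rose by 2.27 ± 0.19 in Flox and 1.97 ± 0.19 in GR iKO, Batf, a factor of T helper 17 cells, rose by 1.61 ± 0.36 and 2.47 ± 0.36, and Irf4 fell by 3.60 ± 0.53 and 1.49 ± 0.53. Of 8 T cell markers, 2 fell in Flox and none was called by limma in GR iKO, where none had an unadjusted p under 0.05 either. Their summed level ran from -0.60 to 0.09 in Flox on DSS and from 0.21 to 1.22 in GR iKO on DSS, against -0.07 to 1.01 and 0.27 to 0.64 on water. The 4 tested innate or gamma delta lymphocyte markers of 6 listed summed to 1.10 to 1.63 in Flox and 0.78 to 1.80 in GR iKO on DSS, with Ncr1 well above background on no array.
Markers of other cells moved with DSS. The 6 tested neutrophil markers of 7 listed summed to 4.55 to 6.05 in Flox and 6.36 to 8.13 in GR iKO on DSS, against -2.98 to -0.90 on all water arrays, and 5 rose in Flox and 6 in GR iKO. Of these, Cxcr2 was well above background on DSS arrays only, and Ngp on the 3 GR iKO DSS arrays and 1 water array. Both thus had to be high on DSS to be tested. The 7 macrophage markers rose in 4 and 5 cases (3.88 to 4.92 and 3.98 to 4.72 on DSS). The 5 dendritic cell markers summed to -0.52 to 0.08 in Flox and 1.04 to 1.38 in GR iKO on DSS, with 0 and 2 called. On water they summed to -0.46 to 0.42 in Flox and -0.37 to 0.01 in GR iKO. The 2 called were Itgax (1.28 ± 0.31) and Ccr7 (2.38 ± 0.40). The other dendritic cell markers were not called in GR iKO, with changes from -0.24 to 0.60. The 5 B and plasma cell markers fell in 4 cases in Flox and 2 in GR iKO, and all 4 smooth muscle markers rose in Flox and none was called by limma, or had an unadjusted p under 0.05, in GR iKO. In whole colon, more cells of a type and more RNA per cell cannot be told apart, and the part of these cells in the members' values was not tested.

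For each tested member, the genes whose levels over the 14 arrays were most like it were listed as a description, with r the Pearson correlation across arrays that fall into water and DSS groups. Il17a was most like Tlr6 (r = 0.974), Adam8 (0.973) and Fes (0.972), and Il17f was most like Arl5b (0.952), Ttc39b (0.942) and Apaf1 (0.941). Il17ra was most like Irak2 (0.941), Dapp1 (0.912) and Abi1 (0.911). Il22 was most like Dnmt3l (0.961), Tnfaip8 (0.945) and Ttyh1 (0.940), Il12b was most like Adcy2 (0.959), Lce3c (0.957) and Ifit2 (0.952), and Il10 was most like E230029C05Rik (0.940), Sprr2d (0.940) and Snx18 (0.938). Il22ra2 was most like Tmeff1, Oosp1 and Ell3 (0.970 each), and Il22ra1 was most like Olfr338 (0.963), Olfr821 (0.958) and Sema5b (0.952). No member was among the nearest genes of another.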

How the data were processed

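Colon RNA (500 ng, Cy3) of 14 samples was hybridised to 1-colour Agilent arrays. The authors read the scans with Agilent Feature Extraction, version 12.0.0.7 per the file headers. The deposited scanner output holds linear intensity values, background-subtracted, with no scaling between arrays. The submitters' processing notes also name Partek 6.6, and the deposited value table holds log2 values with normalization not given in the sources used here. How the study tested its arrays was not used here. A positive surrogate replaces signals near background in the processed intensity, so the size of a change from or to such a signal is not measured, and bounds are given. Fitted changes of dim probes depended on the background correction. Il17a in GR iKO changed by 4.57 log2 units on processed signals and 1.64 with normexp, and Il22ra2 in Flox by -4.42 and -0.85. The number of arrays limits the precision.

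Control spots (1639 of 45018) and outlier-flagged spots were left out, spots of a probe were averaged, and log2 values were taken relative to the 75th percentile of each array. Probes well above background on at least 3 arrays (29523 of 41174) were fitted with limma 3.58.1 in R 4.3.3 over all 14 arrays, with 1 weight for the water arrays and another for the DSS arrays. Benjamini-Hochberg adjustment ran over all tested probes in each of the 5 comparisons, at 0.05. The fit was checked on simulated data. Probes were named by RefSeq accession (GRCm38.p6 table), except Il12b, and the probe with the highest mean stood for a gene. The array grid is on another build, so no probe coordinates are given, and where the Nr3c1 probes lie relative to the deleted part is not known. From each list, at most the 3 non-members with the largest called DSS change and the partners of members were named. The members, the lists and the weights were chosen with earlier results of these data known. Groups came from the sample labels. Alternatives covered the spread model, scaling, background correction, the deposited values, the filter, slide and replicate blocks, probe averaging and leaving out each array. Normexp used the median foreground and background signals, with an offset of 50.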

Additional observations from a re-analysis of the deposited data

Results flagged for a closer look

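Dixon's test at the 95% level was applied to the 4 arrays of each water group for the 13 member probes, 26 groups in all, and chance flags about 1 in 20 such groups. It singled out 3 arrays. Il22 on its brighter probe read -3.24 in Flox control replicate 2, where its gap to the next array was 0.832 of the group's range, and this array was well above background for that probe but not for the second Il22 probe. Il12b read -8.62 in Flox control replicate 1, with a gap of 0.838 of the range, on a probe that was not well above background there. Il17a read -7.34 in GR iKO control replicate 2, with a gap of 0.850 of the range, also not well above background.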

How the results depend on the processing

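The counts of members called were 2 of 8 in Flox and 6 of 8 in GR iKO for DSS against water, and 0 for genotype on water, genotype on DSS and the interaction. In Flox the count was 5 with array quality weights, 4 with normexp background correction and 5 with spike-in scaling. These settings called 66.2%, 47.5% and 86.1% of all tested probes in Flox, against 47.2% as reported. The stricter filter (at least 7 arrays) gave 1 of 4 in Flox, beside 48.6% of its tested probes. It left 2 of 4 in GR iKO, beside 40.1%, because Il17a, Il17f, Il10 and Il12b were no longer tested. Genotype on DSS gave 3 with 1 shared spread and 1 with array quality weights, which called 13.2% and 15.1% of all tested probes, and the interaction gave 1 with array quality weights and 6 with spike-in scaling, which called 10% and 23.3%. Leaving out each of the 14 arrays gave 2 to 3 members in Flox, 6 to 7 in GR iKO, 0 to 1 for genotype on DSS (1, Il17a, without Flox DSS replicate 4 or without GR iKO DSS replicate 3), and 0 for genotype on water and for the interaction. The share of all tested probes called then ran from 31.1% to 50.1% in Flox and from 29.7% to 40.4% in GR iKO. For genotype on DSS it was 2.8% without Flox DSS replicate 4 and 2.48% without GR iKO DSS replicate 3. With the replicate block the counts were 3 in Flox, where Il22ra1 was called lower (adjusted p = 0.0352), 6 in GR iKO and 0 for the other comparisons. That block called 48.3% of all tested probes in Flox and 39.8% in GR iKO. Samples of the same number correlated at -0.227 to 0.310 over 18 pairs, 9 of them over 0.1, so the numbers were not taken as pairs. Spike-in scaling moved the median of all tested probes on DSS to -2.47 in Flox and -0.997 in GR iKO and called 202 probes higher and 25211 lower in Flox, against 6438 and 7511 as reported. Under it Il10 and Il17f were called lower in Flox (-1.74, adjusted p = 0.0193, and -2.25, adjusted p = 0.0134), the second Il17ra probe read -0.28 in GR iKO (adjusted p = 0.640), and Il12b in Flox (0.23), Il10 in GR iKO (0.94) and Il17f in GR iKO (1.63) lost their calls. Each of these values lay above the median of its genotype. That scaling also moved the median of genotype on DSS to 1.28, beside which Il17a read 5.12. Normexp ended the call of Il22ra2 in GR iKO (-0.62, adjusted p = 0.0687), and median scaling and leaving out GR iKO DSS replicate 1 or 3 ended that of the second Il17ra probe (0.59, 0.59 and 0.71). The cause of these changes was not tested. Over the 10 tested probes and 5 comparisons, 1365 values were recomputed, of which 1291 kept direction and call, 34 gained a call, 7 lost one, 3 changed sign with a call involved and 30 changed sign with no call in either setting.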
